A study of Mus musculus with 8 samples.

Results

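The neuronal pentraxins are secreted or membrane-bound synaptic proteins, encoded by Nptx1, Nptx2 and Nptxr. Their probes were taken by gene symbol from the annotation of the array, which gave 2 of the 21363 genes covered and 3 of 32684 probes, 1 for Nptx1 and 2 for Nptx2. Nptxr had 0 probes under its own symbol and is not analysed here. The family was selected on differences between 3xTg and WT in these same arrays, and its members were then fixed by symbol. The tissue was subventricular zone of the lateral ventricle, dissected from forebrain sections of female mice aged 7 months, with 4 3xTg samples and 4 wild-type (WT) samples of the control strain. Each mouse, by its label, had a background of C57BL/6J females (B6) crossed with 129S1/SvImJ males (129S), in 3xTg and WT alike. Per the labels a 3xTg sample in Cy5 and the equally numbered WT sample in Cy3 were hybridised to 1 array, so the 8 samples lay on 4 arrays and dye and genotype cannot be told apart. The labelling protocol, given alike for every sample, names Cy3 primers only, which goes against the Cy5 label of the 3xTg samples, and this was not resolved here. 3xTg mice model Alzheimer's disease, and their alleles include mutant human APP and tau transgenes under a Thy1 cassette, expressed in neurons.

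Neuronal pentraxins form disulphide-linked complexes in which a C-terminal pentraxin domain binds AMPA-type glutamate receptors and gathers them at excitatory synapses. Nptx2, also called Narp, is an immediate early gene of synaptic activity whose product is released by excitatory neurons onto interneurons, where it clusters receptors that contain the Gria4 subunit. Nptx1 is a secreted relative that is less dependent on activity, and the product of Nptxr is a transmembrane member that anchors the complexes and can be shed by the protease Adam17. The subventricular zone is a germinal layer of neural stem cells and neuroblasts under the ependyma, with the striatum beside it, so neuronal transcripts in a dissected sample can come from neighbouring neurons.

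All values are log2 normalized intensities as deposited, and differences are log2 3xTg minus WT within an array, averaged over 4 arrays, with the standard error (SE) of a limma fit over all probes that has the array as a block. Sample medians lay between 10.12 and 10.15. The median difference of all probes was 0.0088 log2 units, and 203 probes (0.621%) were higher and 197 (0.603%) lower in 3xTg at an adjusted p under 0.05. Detection above background was not assessed here, so the markers of the niche were measured but their presence above background was not checked, and the number of arrays limits precision. Since this contrast chose the pentraxins, their differences are given as a description with no test.

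Nptx2 was lower in 3xTg at both of its probes and on every array. At the probe A_52_P187058 the 3xTg samples of replicates 1 to 4 measured 9.68, 10.05, 10.91 and 11.42 log2 units, against 11.94, 12.19, 12.25 and 12.44 in the WT samples of the same arrays. Every 3xTg sample lay below every WT sample, with 0.51 log2 units between the highest 3xTg and the lowest WT sample. Group means ± SD (n = 4 each) were 10.52 ± 0.79 in 3xTg and 12.21 ± 0.21 in WT. The difference was -1.69 ± 0.21 (SE), or 3.22-fold lower. From the array of replicate 1 to that of replicate 4 the differences were -2.25, -2.14, -1.34 and -1.02. In folds the array of replicate 1 was 4.76-fold lower and that of replicate 4 2.03-fold lower. The 3xTg samples covered 1.74 log2 units and the WT samples 0.50, so the unequal size of the array differences lay mostly in the 3xTg samples.

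The second Nptx2 probe, A_55_P2147696, had the same sign with a smaller difference. The 3xTg samples of replicates 1 to 4 measured 8.75, 8.23, 9.65 and 9.39 log2 units, against 10.10, 9.47, 10.02 and 10.26 in WT. Here the groups overlapped, since the 3xTg sample of replicate 3 lay above the WT sample of replicate 2, while each 3xTg sample lay below the WT sample of its own array. The means ± SD (n = 4 each) were 9.01 ± 0.64 in 3xTg and 9.96 ± 0.35 in WT. They differed by -0.96 ± 0.17 (SE), or 1.94-fold lower. By array the differences were -1.35, -1.24, -0.36 and -0.88. The difference at the first probe minus that at the second was -0.90, -0.90, -0.98 and -0.14 log2 units on the 4 arrays in the same order.

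Nptx1, with its single probe A_52_P109393, differed little and not with 1 sign. This probe was dim, with a mean intensity above that of 30.9% of all probes, against 70.8% for A_52_P187058 and 38.7% for A_55_P2147696. The contrast with Nptx2 therefore rests on 1 dim probe. Nptx1 levels in replicates 1 to 4 were 8.94, 8.62, 9.03 and 9.02 log2 units in 3xTg and 9.22, 9.30, 9.40 and 8.64 in WT. The groups overlapped, and only the 3xTg sample of replicate 2 was lower than the WT sample of replicate 4. Means ± SD (n = 4 each) of 8.90 ± 0.19 in 3xTg and 9.14 ± 0.34 in WT gave a difference of -0.24 ± 0.17 (SE). On the arrays of replicates 1 to 4 it was -0.28, -0.68, -0.37 and 0.38, so 3 arrays were lower and 1 higher. With replicates 1 and 2 left out together it was 0.0038, and without replicate 4 it was -0.44.

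**Figure D1:**
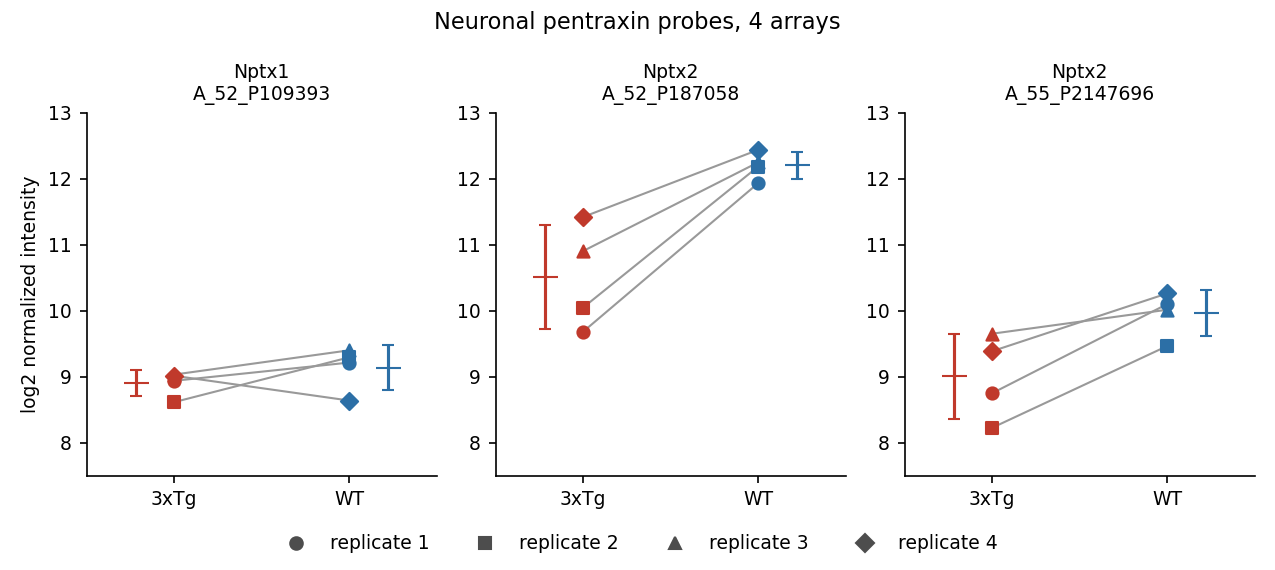
Log2 normalized intensity (vertical axis) of the 3 neuronal pentraxin probes in 3xTg samples (left, red) and WT samples (right, blue); a grey line joins the samples of 1 array, marker shapes give the replicate number, and bars beside the points show the mean ± SD of 4 samples. All 4 lines of each Nptx2 probe run lower in 3xTg, the groups of A_52_P187058 do not overlap, and for Nptx1 3 lines are lower in 3xTg and 1 is higher; levels of different probes are not comparable.

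Of the 3 probes, 2 had an adjusted p under 0.05 as lower in 3xTg, where 0.603% of all 32684 probes did, and 1 of 3 had every 3xTg sample below every WT sample, where 2.51% of all probes did. Nothing is read from these counts, because this contrast was known when the genes were chosen. As a description of size, 19 probes on the array, A_52_P187058 included, had a difference as low as that of A_52_P187058 or lower, and 128 had one as low as that of A_55_P2147696 or lower. The count of 2 changed with the arrays kept and the settings. It was 0 without replicate 2 or without the array as a block in limma, with 2 probes at an unadjusted p under 0.05 each time. Over all probes the lower calls fell too, from 197 to 19 and to 31 in these settings, and nothing is read from the loss. The count of pentraxin probes called was 1 without replicate 1, without replicate 4, with quantile normalization or without the dimmest 25% of probes. It was also 1 without replicates 1 and 2 together. With the probes of a gene averaged, 1 of 2 genes was called. Over each array left out in turn the differences stayed between -1.91 and -1.50 at A_52_P187058 and between -1.16 and -0.83 at A_55_P2147696. None of the 3 probes reached the highest value of any sample, where the scanner saturates.

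**Figure D2:**
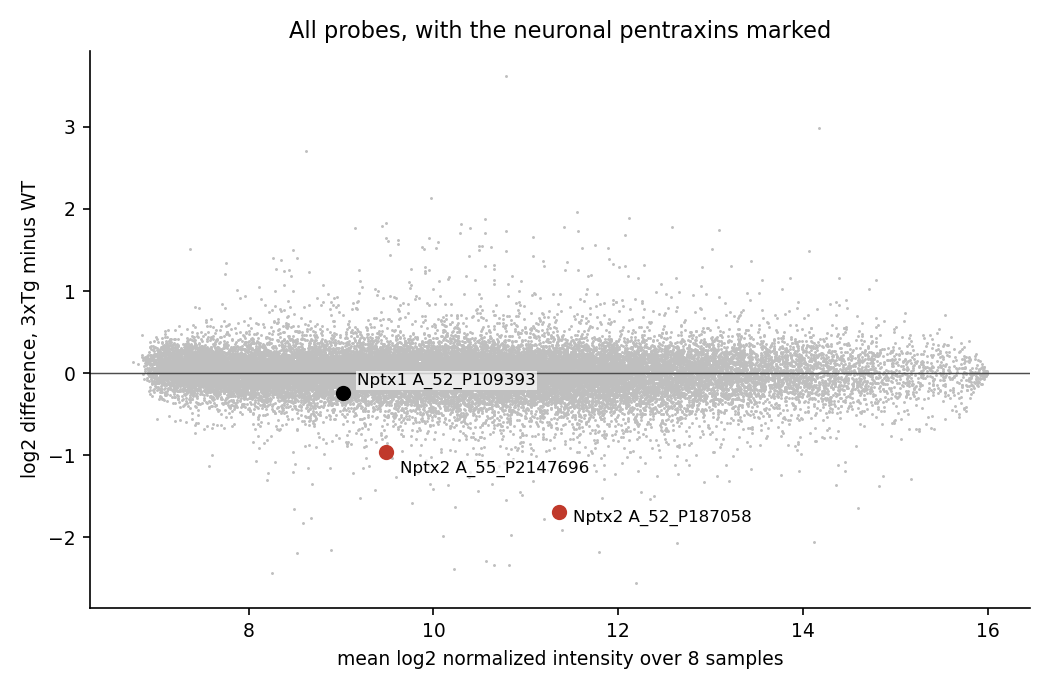
Log2 difference, 3xTg minus WT (vertical axis), against mean log2 normalized intensity over the 8 samples (horizontal axis) for all 32684 probes in grey, with the Nptx2 probes in red and the Nptx1 probe in black. The Nptx2 probes lie at -1.69 and -0.96, below most of the cloud, and the Nptx1 probe at -0.24 lies inside it.

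The locus of Nptxr was touched only indirectly. Npcd, a gene that the RefSeq table (GRCm38.p6) places over Nptxr and Cbx6 on chromosome 15, had 2 probes. These were chosen after the missing Nptxr symbol was noticed, and which transcript they measure was not resolved here. At A_55_P2147846 the means ± SD (n = 4 each) were 15.12 ± 0.25 in 3xTg and 15.07 ± 0.20 in WT, differing by 0.052 ± 0.15 (SE, limma adjusted p = 0.887), and 2 arrays were lower and 2 higher. At A_55_P2111745 the means were 10.31 ± 0.14 in 3xTg and 10.56 ± 0.26 in WT, differing by -0.25 ± 0.12 (adjusted p = 0.333).

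Other genes of the pentraxin superfamily encode soluble recognition proteins of innate immunity. Of 6 listed, 5 were measured, and all lay above 0 at the brightest probe of each gene, with a median of 0.19, beside 0.010 for the brightest probes of all 21363 genes. None passed (limma, 0 of 5, with 1 at an unadjusted p under 0.05), where 0.562% of all genes passed as higher and 0.623% as lower. Crp, C-reactive protein, averaged (± SD, n = 4 each) 8.95 ± 0.45 in 3xTg and 8.58 ± 0.41 in WT, with a difference of 0.37 ± 0.13 (SE, adjusted p = 0.197). Differences were 0.24 for Ptx4, 0.19 for Ptx3, the long pentraxin, 0.12 for Mptx1 and 0.046 for Apcs, serum amyloid P component, with adjusted p between 0.413 and 0.852. Each of the 5 was higher on 3 arrays and lower on 1.

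The AMPA receptor subunits, which neuronal pentraxins bind, did not pass in either direction (limma, 0 of 4, with 1 at an unadjusted p under 0.05), and their median was 0.099. Gria1, the GluA1 subunit, measured 13.73, 14.51, 13.17 and 14.50 in the 3xTg samples of replicates 1 to 4, against 13.21, 13.66, 13.02 and 13.90 in WT. The groups overlapped, while each 3xTg sample was above the WT sample of its array, and the difference was 0.53 ± 0.13 (SE, adjusted p = 0.1004). Gria4, the subunit that Nptx2 gathers on interneurons, measured 13.31, 13.19, 13.15 and 12.61 in 3xTg, against 12.68, 12.87, 12.93 and 12.87 in WT. It was higher on the arrays of replicates 1 to 3 and lower on that of replicate 4, with a difference of 0.23 ± 0.15 (SE, adjusted p = 0.455). Gria2 and Gria3 differed by -0.029 and -0.11 (adjusted p = 0.942 and 0.669). At second probes the differences were 0.14 for Gria2, -0.26 for Gria3 and 0.061 for Gria4. The list's median was -0.011 without replicate 1.

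Proteins that accompany AMPA receptors were mixed, with 10 of 18 above 0, a median of 0.037 and 0 called (limma, with 7 at an unadjusted p under 0.05). Differences in the list ran from -0.80 to 0.51. The 3 members of smallest p, the only ones named here, were all lower on 4 of 4 arrays. Gsg1l, an auxiliary subunit that slows receptor recovery, differed by -0.80 ± 0.20 (SE, adjusted p = 0.108), with -0.93 at its second probe. Shisa9, another auxiliary subunit, differed by -0.55 ± 0.14 (adjusted p = 0.124). Cacng2, known as stargazin, which carries AMPA receptors to the synapse, differed by -0.44 ± 0.12 (adjusted p = 0.128), with -0.27 at its second probe. At the brightest probe 5 of 18 members, or 27.8%, were lower on all 4 arrays and 1, or 5.56%, was higher. Of all probes, bright and dim alike, 12.0% were lower on all 4. The list was written with earlier results of these data known, so nothing is read from that share.

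Genes that process or bind the pentraxins gave 0 calls among 7 measured (limma, with 3 at an unadjusted p under 0.05) and a median of -0.023. Adam17, the sheddase of the Nptxr product, differed by 0.012 ± 0.097 (SE, adjusted p = 0.966). Grm5, the glutamate receptor whose activation triggers that shedding, measured 14.34, 14.28, 14.15 and 14.58 in 3xTg, against 14.14, 13.84, 13.78 and 14.21 in WT. Its brightest probe was higher on 4 of 4 arrays, by 0.35 ± 0.096 (SE, adjusted p = 0.135), but its other probes differed by -0.19 and -0.39, so the probes of Grm5 disagreed in sign. C1qa, C1qb and C1qc encode the chains of complement C1q, a binding partner of Nptx2, and differed by -0.36, -0.039 and -0.28 (adjusted p = 0.233, 0.895 and 0.297). Rcn2 and Calu, calcium-binding proteins of the secretory pathway, differed by 0.38 and -0.023 (adjusted p = 0.190 and 0.940).

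Synaptic organizers, the adhesion and secreted proteins that align the membranes at a synapse, had a median of 0.093, with 15 of 23 above 0 and 0 called (limma, with 5 at an unadjusted p under 0.05). Nrxn3, a presynaptic neurexin, differed by 0.48 ± 0.12 at its brightest probe (SE, adjusted p = 0.108) and between 0.35 and -0.0037 at the others. Nlgn3, a neuroligin, differed by 0.26 (adjusted p = 0.224), and Adam23, a receptor for Lgi1, by -0.37 (adjusted p = 0.224). Perineuronal net genes encode the matrix around interneurons in which Nptx2 protein accumulates. Of 13, 8 lay below 0, with a median of -0.034 and 0 called (limma, with 1 at an unadjusted p under 0.05). Ncan, neurocan, differed by -0.34, Bcan, brevican, by -0.21 and Hapln4, a link protein, by 0.55 (adjusted p = 0.273, 0.296 and 0.347). A second Bcan probe differed by 0.18.

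Nptx2 belongs to the genes that synaptic activity induces, and other genes of that kind were mostly lower. Of 34, which leave out Nptx2, 27 lay below 0, the median was -0.30, and 2 passed as lower and 0 as higher (limma), that is 5.88% lower beside 0.623% of all genes. At the brightest probe 10 of 34, or 29.4%, were lower on all 4 arrays and 1 was higher, beside 12.0% of all probes, bright and dim alike, that were lower. The list was written with earlier results of these data known, so nothing is read from these shares. Plat, tissue plasminogen activator, measured 11.77, 11.98, 12.29 and 11.76 in the 3xTg samples of replicates 1 to 4, against 12.38, 12.62, 12.84 and 12.65 in WT. No 3xTg sample reached the lowest WT sample, and Plat fell by 0.68 ± 0.10 (SE, limma adjusted p = 0.0313). Gadd45b, a stress and activity-induced regulator of DNA demethylation, measured 10.09, 9.64, 10.17 and 9.94 in 3xTg, against 10.56, 10.67, 11.09 and 10.54 in WT. Its groups did not overlap either, as held for 2.51% of all probes in this direction, and it fell by 0.76 ± 0.12 (adjusted p = 0.0377).

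Inhba, which encodes the activin A subunit and is induced by synaptic activity, came next. It measured 9.17, 9.32, 11.04 and 11.33 in 3xTg, against 11.58, 11.25, 11.95 and 12.02 in WT, with a difference of -1.48 ± 0.27 (SE, limma adjusted p = 0.0535). Like Nptx2 it was lowest in the 3xTg samples of replicates 1 and 2, but 1 3xTg sample lay above 1 WT sample. Ier5 differed by -0.44 and Homer1, a scaffold of synaptic glutamate receptors, by -0.86 (adjusted p = 0.0821 and 0.0949), each lower on 4 arrays at the brightest probe, while a second Ier5 probe differed by 0.23. At dimmer probes 2 genes of the list were called lower in 3xTg (limma), Homer1 at A_55_P1982121 by -0.84 (adjusted p = 0.0473) and Per1, a circadian clock gene, at A_55_P1970033 by -0.77 (adjusted p = 0.0213), each lower on 4 arrays. The 3 remaining Homer1 probes differed by between -0.45 and -0.021, and the brightest Per1 probe by 0.25 (adjusted p = 0.602). Array by array, from replicate 1 to 4, the median of the activity-induced genes was -0.49, -0.34, -0.31 and 0.047, and without replicate 1 the median over arrays was -0.20. On the array of replicate 4, where that median was not below 0, the Nptx2 differences were -1.02 and -0.88.

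**Figure D3:**
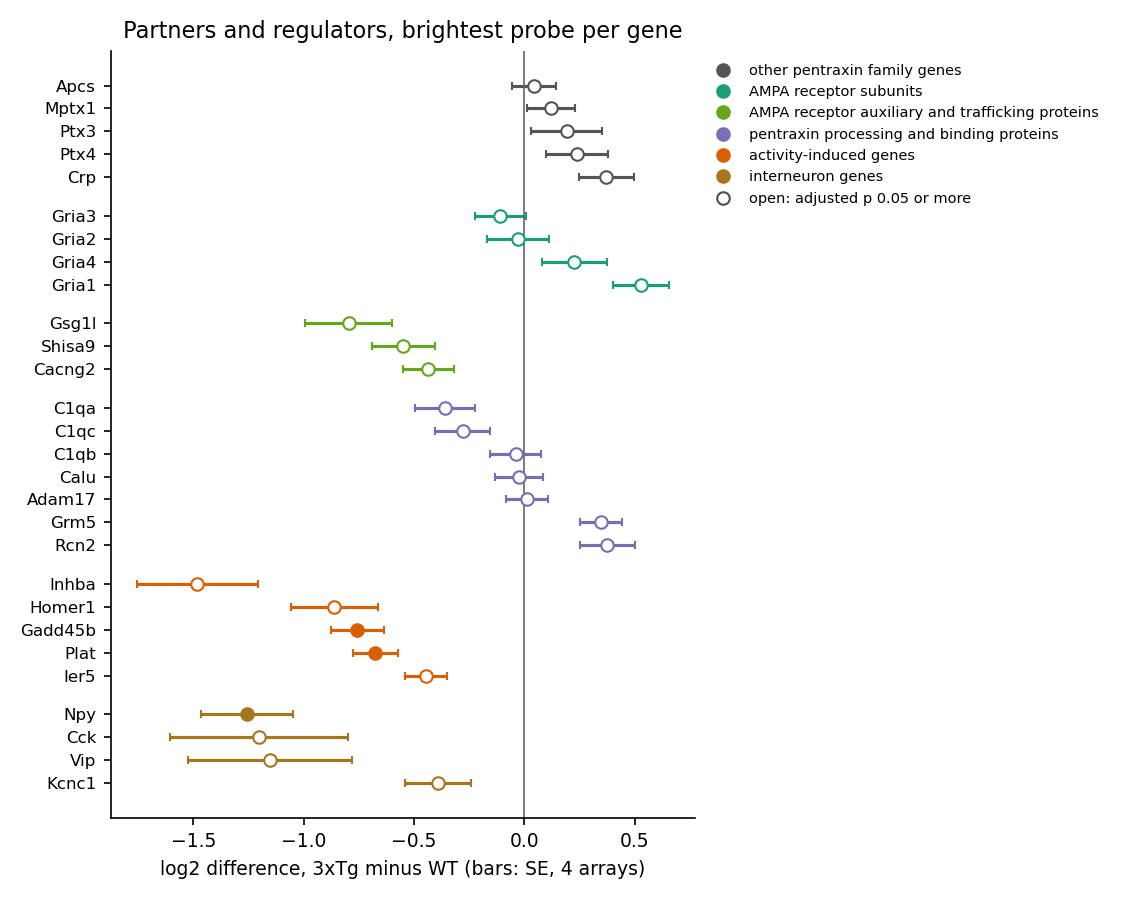
Log2 difference, 3xTg minus WT (horizontal axis, bars show the SE over 4 arrays), at the brightest probe of genes in 6 lists around the pentraxins. Points are coloured by list, and filled points had an adjusted p under 0.05 while open points did not. Of the auxiliary protein, activity-induced and interneuron lists only called genes and the 3 further genes of smallest p are drawn. The members of these lists above 0 (10 of 18, 7 of 34 and 7 of 17) are therefore not shown. The filled points are Gadd45b and Plat among activity-induced genes and Npy among interneuron genes, all lower in 3xTg, and the AMPA receptor subunits lie between -0.11 and 0.53.

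Interneurons, which receive Nptx2 at their synapses, were represented by 17 genes with a median of -0.11, of which 10 lay below 0 and 1 passed as lower (limma; 5.88%, beside 0.623% of all genes). Differences in the list ran from -1.26 to 1.00, and the array medians were 0.14, -0.093, -0.49 and 0.033. The median was -0.023 without replicate 3 and -0.030 with the probes of a gene averaged. As the list was written with earlier results of these data known, nothing is read from the share called. The called gene was Npy, the neuropeptide Y precursor. It measured 11.20, 11.53, 12.08 and 12.37 in 3xTg, against 12.69, 13.36, 13.36 and 12.80 in WT, and every 3xTg sample lay below every WT sample. Npy fell by 1.26 ± 0.21 (SE, adjusted p = 0.0409). Vip and Cck, 2 other neuropeptide precursors, differed by -1.15 and -1.20 (adjusted p = 0.181 and 0.194), lower on 3 arrays each. Kcnc1, a potassium channel of fast-spiking cells, differed by -0.39 (adjusted p = 0.237), although its remaining probes gave 0.28 and 0.35.

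In these dissected samples fewer cells of a type and less RNA per cell cannot be told apart, and markers of the surrounding regions moved along with Nptx2 on some arrays. Of 21 striatal projection neuron markers 20 lay below 0, with a median of -0.87 and array medians of -1.59, -1.44, 0.20 and -0.34 for replicates 1 to 4. Mean levels of this list spanned 12.34 to 13.80 in 3xTg and 13.60 to 14.09 in WT. Of 18 cortical and hippocampal glutamatergic markers 14 lay below 0, with a median of -0.48, array medians of -0.57, -0.79, -0.72 and 0.22, and mean levels of 11.07 to 11.72 in 3xTg and 11.41 to 12.26 in WT. Differences ran from -1.36 to 0.11 in the striatal list and from -2.18 to 0.40 in the cortical list. None of the genes in these lists passed at its brightest probe (limma, 0 of 21 and 0 of 18, with 15 and 9 at an unadjusted p under 0.05). A dimmer probe was called lower in each list, for Arpp21, a phosphoprotein of striatal neurons, at A_55_P2016937 by -1.25 (adjusted p = 0.0291, beside -1.26 with adjusted p = 0.200 at its brightest probe) and for Camk2a, a synaptic kinase subunit, at A_55_P2149209 by -0.68 (adjusted p = 0.0403, beside 0.021 with adjusted p = 0.935 at its brightest probe). Both of these dimmer probes were lower on 4 arrays. The striatal median was -0.54 without replicate 1, and the cortical one -0.73 without replicate 4. On the array of replicate 3, where the striatal median was 0.20, the Nptx2 differences were -1.34 and -0.36. On that of replicate 4, where the cortical median was 0.22, they were -1.02 and -0.88. Without replicates 1 and 2 the striatal median was -0.045 and the cortical one -0.32. The Nptx2 differences were then -1.18 at A_52_P187058 and -0.62 at A_55_P2147696.

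Septal and cholinergic markers ran the other way, with 8 of 12 above 0, a median of 0.43 and array medians of 0.77, 0.61, 0.10 and -0.12. The median was 0.17 without replicate 1, 0.18 without the dimmest 25% of probes and 0.029 without replicates 1 and 2 together. Their mean levels were 10.85 to 11.76 in 3xTg and 10.69 to 10.94 in WT. In this list 2 genes passed as higher (limma, 16.7%, beside 0.562% of all genes), the transcription factors Zic1 at 1.49 and Isl1 at 0.71 (adjusted p = 0.0496 and 0.0429). This list too was written with earlier results of these data known, so nothing is read from that share. A second, dimmer Zic1 probe differed by 0.97 and did not pass (limma adjusted p = 0.203). General neuronal markers were split, with 7 of 14 above 0, a median of 0.010, array medians of 0.47, 0.010, -0.24 and -0.0023, and mean levels of 14.44 to 14.93 in 3xTg and 14.42 to 14.75 in WT. Of these 14 genes, 4 were at the highest measurable value of at least 1 sample, which bounds their differences. The array medians of 0.010 and -0.0023 equal the differences of probes at that value in both samples of those arrays, so they carry only a bound. Genes at that value in at least 1 sample were also 2 of 17 interneuron, 1 of 21 striatal and 2 of 18 cortical genes. So were 1 of 18 AMPA receptor auxiliary, 1 of 23 synaptic organizer, 1 of 9 neuroblast and 1 of 9 oligodendrocyte genes. Of the microglial genes 1 of 7 was at it in every sample. The part of the striatal, cortical, septal and general neuronal markers in the Nptx2 difference was not tested. Over the glial, neuroblast, ependymal and choroid plexus lists 0 genes passed (limma), with medians of 0.25 for astrocytes and neural stem cells, 0.33 for oligodendrocytes, -0.028 for microglia, -0.083 for neuroblasts, -0.074 for ependymal cells and -0.027 for choroid plexus, and with 5, 3, 2, 4, 0 and 3 genes at an unadjusted p under 0.05.

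**Figure D4:**
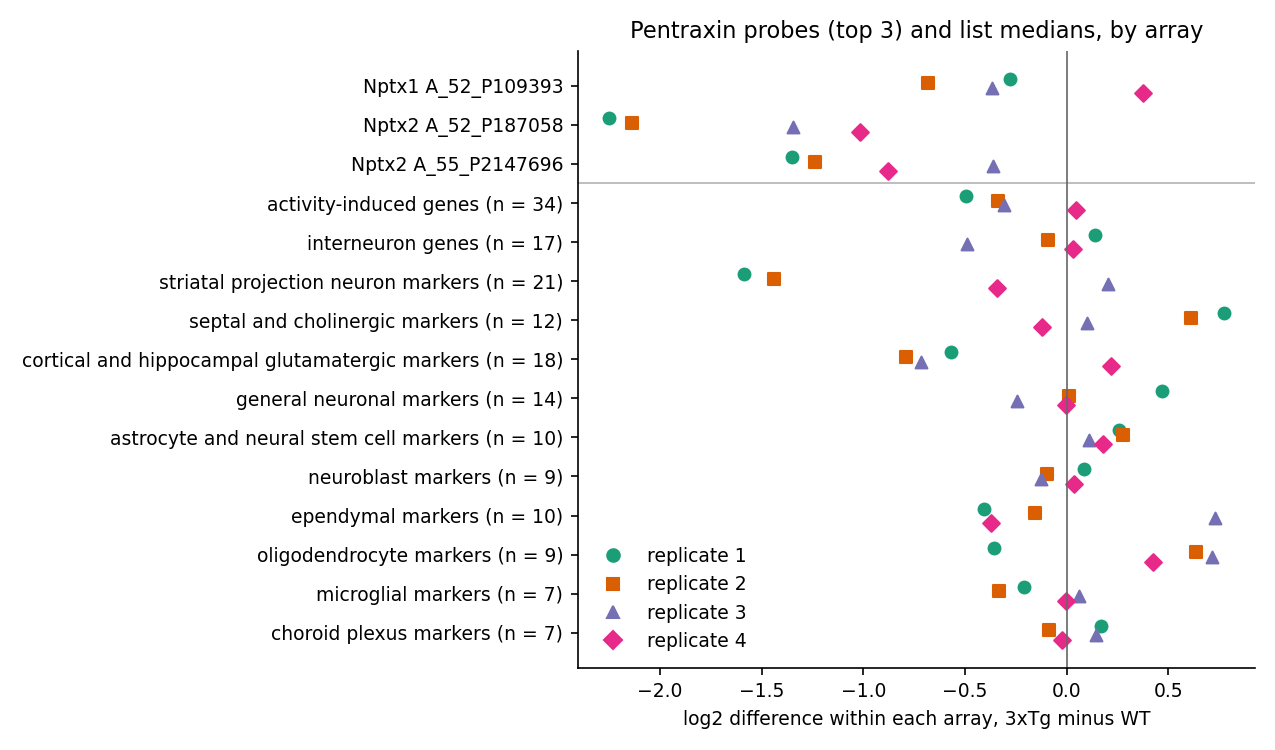
Log2 difference within each array, 3xTg minus WT (horizontal axis), for the 3 pentraxin probes (above the line) and as the median of each marker list (below it, with the number of genes), with marker shape and colour for the replicate number. The Nptx2 points are left of 0 on all 4 arrays, whereas the striatal median is below 0 in replicates 1, 2 and 4 (-1.59, -1.44 and -0.34) and above it in replicate 3 (0.20).

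The calls among the listed genes changed with the arrays kept and with the normalization. Over all lists 236 genes were measured, of which 3 passed as lower and 2 as higher (Plat, Gadd45b, Npy, Zic1 and Isl1). Of these 5, 0 passed without replicate 1, 0 without replicate 2, 2 without replicate 3 and 2 without replicate 4. With all 4 arrays kept and quantile normalization, 1 of the 5 passed.

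The genes beside Nptx2 on chromosome 5 were examined in the gene order of the RefSeq table. Of the 10 nearest measured genes, 5 on each side, 2 passed as lower and 0 as higher (limma), beside 0.623% and 0.562% of all genes, and the median of the 10 was -0.15. At an unadjusted p under 0.05 were 6 of the 10, of which Tmem130 (0.58) and Gm4871 (0.32) were above 0 and the others below. Bri3 measured 12.40, 12.31, 12.43 and 12.24 in the 3xTg samples of replicates 1 to 4, against 12.83, 13.03, 13.17 and 12.91 in WT. The groups did not overlap, and Bri3 fell by 0.64 ± 0.10 (SE, limma adjusted p = 0.0342). Trrap, a scaffold of histone acetyltransferase complexes, measured 11.00, 11.14, 11.17 and 11.44 in 3xTg, against 11.50, 12.21, 12.06 and 12.00 in WT, again with no overlap. It fell by 0.75 ± 0.12 (SE, adjusted p = 0.0394).

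Each of these neighbours had a second, dimmer probe that did not pass, at -0.10 for Bri3 and -0.014 for Trrap (adjusted p = 0.788 and 0.965). Neither passed when any 1 array was left out, with adjusted p between 0.0607 and 0.318 for Bri3 and between 0.0675 and 0.318 for Trrap. The other neighbours differed by between -0.45 at Tecpr1 and 0.58 at Tmem130, the next measured gene after Nptx2.

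Around Nptx1 on chromosome 11, 0 of the 10 nearest measured genes passed (limma, with 2 at an unadjusted p under 0.05), and their median was 0.0020. The differences ran from -1.08 at Baiap2, an actin-binding scaffold of excitatory synapses (adjusted p = 0.114), to 0.94 at Rnf213, a ubiquitin ligase (adjusted p = 0.200). Rptor, the mTORC1 subunit and next measured gene after Nptx1, differed by -0.18 (adjusted p = 0.450). The brightest probes of Sgsh and Endov were at the highest value of every sample and carry only a bound.

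**Figure D5:**
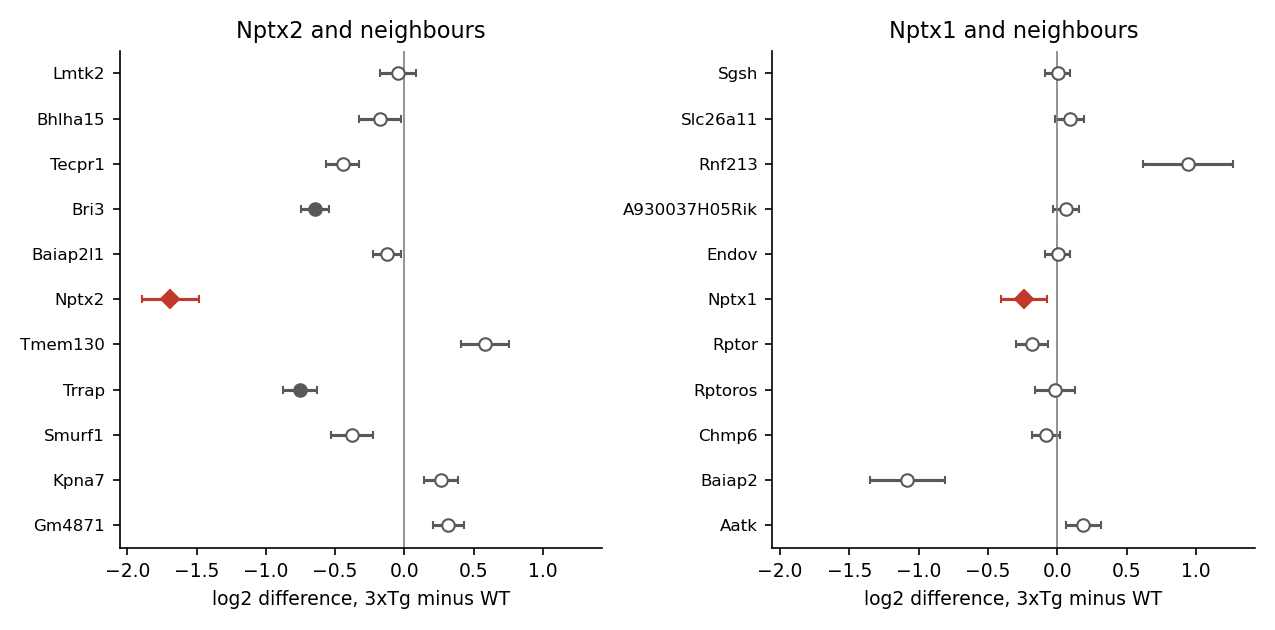
Log2 difference, 3xTg minus WT (horizontal axis, bars show the SE over 4 arrays), of Nptx2 at A_52_P187058 (left panel) and Nptx1 (right panel) in red and of their 5 nearest measured genes on each side in gene order, with filled circles for genes at an adjusted p under 0.05. Bri3 at -0.64 and Trrap at -0.75 are the filled circles beside Nptx2, and there are none beside Nptx1.

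The genes most like each pentraxin were found by Pearson correlation of the brightest probes over the 8 samples, which share arrays and group, so these values describe a ranking among 21363 genes. For Nptx2 the highest were Exd2, a nuclease (r = 0.98), Adam1a, a metalloprotease-like protein (0.98), Rab15, a GTPase of endosomal recycling (0.98), Tbc1d17, a regulator of Rab GTPases (0.98), and Plcb1, phospholipase C beta (0.97). Each was lower in 3xTg on 4 of 4 arrays, which follows from the likeness. Adam1a differed by -0.89, Rab15 by -0.67 (-0.92 at its second probe), Tbc1d17 by -0.60, Exd2 by -0.49 and Plcb1 by -0.44. Exd2, for instance, measured 11.07, 11.08, 11.52 and 11.65 in 3xTg, against 11.75, 11.83, 11.88 and 11.84 in WT, the same order among 3xTg samples as Nptx2.

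For Nptx1 the most alike were Cplx3, a complexin of synaptic vesicle release (r = 0.93), Prrt3 (0.91), C1qtnf2, a secreted C1q-like protein (0.91), Aadat, an enzyme of kynurenine metabolism (0.91), and Fam131a (0.91). Cplx3 measured 11.46, 11.12, 11.50 and 11.67 in 3xTg, against 12.13, 12.31, 12.05 and 11.24 in WT. As with Nptx1, its WT sample of replicate 4 stood below the other WT samples, and each of the 5 genes was lower in 3xTg on 3 of 4 arrays.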

How the data were processed

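The authors deposited normalized log2 intensities of 32684 probes in each of the 8 samples. The submitters' processing notes name limma without a version. Of the background correction, the normalization and any filter on probes nothing is stated in the labels. The platform annotation gave 1 symbol to 29769 probes, several to 0 and none to 2915. Entrez identifiers linked 29519 of the named probes to RefSeq genes (GRCm38.p6) and left 250 unlinked, with 0 changes of symbol.

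A linear model was fitted to them in R 4.3.3 with limma 3.58.1, using fixed effects for array and genotype and Benjamini-Hochberg adjustment over all probes; p-values are two-sided. Per the labels the 2 samples with 1 replicate number name the same scanner file. Their deviations from the group means correlated at r = 0.78, 0.78, 0.54 and 0.82, against at most 0.18 between arrays, and per the design text replicates are biological. A list gene is represented by its brightest probe. The text names all pentraxin probes, all members of 3 short lists, called genes and up to 3 further genes of smallest p in each other list, called or chosen neighbours, and the 5 genes of highest correlation; other neighbours and second probes were chosen after their values were seen. The members and lists were chosen with earlier results of these data known. Egr4 and Nr4a2 are in 2 lists. The fit was tested on simulated data. No sequences are shown. Alternatives used statmod 1.5.0 for the array as a random block, centring, quantile or loess (span 0.3) normalization, trend and robust moderation, a filter on the dimmest 25% of probes, gene averages and left-out arrays.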

Additional observations from a re-analysis of the deposited data

Results flagged for a closer look

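In groups of 4 samples, a sample was marked where it stood far from the other 3 relative to the range of its group. This was looked for in 214 groups of values, of which chance marks about 1 in 20, and it marked 9, none of them at a neuronal pentraxin probe. Among list genes, C1qa was highest in WT replicate 1 at 13.04 (12.71 to 12.75 in the other WT samples), Drd3 was highest in WT replicate 1 at 12.49 (12.09 to 12.10 in the others), and Nlgn3 was highest in 3xTg replicate 4 at 15.18 (14.87 to 14.91 in the others). Among neighbours of the pentraxin genes, Gm4871 was highest in 3xTg replicate 2 at 10.63 (9.20 to 9.25 in the others), and A930037H05Rik was lowest in WT replicate 1 at 12.81 (13.01 to 13.04 in the others). Endov and Sgsh were both lowest in WT replicate 2 at 15.98 (15.997 to 15.999 in the others), where each is at the highest value of its sample. The mean level of cortical and hippocampal glutamatergic markers was highest in 3xTg replicate 4 at 11.72 (11.07 to 11.17 in the others), and that of septal and cholinergic markers was highest in WT replicate 4 at 10.94 (10.69 to 10.73 in the others).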

How the results depend on the processing

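The numbers of probes called were 203 higher and 197 lower. They were 47 and 31 with no replicate block, 551 and 758 with the array as a random block, 132 and 115 with quantile normalization, 405 and 500 with trend and robust moderation, 101 and 60 without replicates 1 and 2 together, and 119 and 128 genes when the probes of a gene were averaged. With 1 array left out they ranged from 12 to 185 and from 19 to 229. At the pentraxin probes, leaving out 1 or 2 of 4 arrays cannot move the mean difference by as much as the SD between arrays. A change of block or of moderation leaves that mean as it was, so the small moves seen under these settings show nothing. Probe by probe, the differences ran from -1.91 to -1.18 at A_52_P187058 and from -1.16 to -0.62 at A_55_P2147696. For Nptx1 they ran from -0.44 without replicate 4 to 0.0038 without replicates 1 and 2 together. Averaging its probes gave -1.32 for Nptx2. Among the list medians, those of synaptic organizers (-0.037), perineuronal net genes (-0.12), astrocytes and neural stem cells (0.16) and choroid plexus (-0.16) moved by more than that SD without replicates 1 and 2 together, that of choroid plexus (0.18) without the dimmest probes, and that of neuroblasts (0.019) with averaged probes. With 1 array left out the medians ranged from 0.024 to 0.068 for synaptic organizers, -0.061 to 0.036 for perineuronal net genes, -0.31 to 0.0030 for neuroblasts and -0.085 to 0.12 for choroid plexus. The medians of AMPA receptor auxiliary proteins, pentraxin processing proteins, general neuronal, ependymal and microglial markers also changed sign when some single array was left out. With no replicate block 0 of the 236 list genes passed (limma, with 48 at an unadjusted p under 0.05), and with the array as a random block 15 passed as lower and 7 as higher. The cause of these shifts was not tested. Dim probes are the least certain, and a probe-specific dye effect cannot be told apart from genotype in any difference.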
